A study of Mus musculus with 6 samples.

Results

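The genes of the neutrophil primary granule and of the promyelocyte, the precursor cell that makes it, were followed in bone marrow of mice with and without hindlimb unloading. They were 10 genes, found by symbol among the 54532 genes of the deposited count table: Mpo, Elane, Prtn3, Ctsg, Prss57, Srgn, Fcnb, Ms4a3, Gfi1 and Cebpe. Each symbol matched 1 gene, and all 10 passed the low-count filter that left 15015 genes for testing. The samples were bone marrow cells freshly taken from the femur of WT mice. In 3 samples the mice had undergone hindlimb unloading for 4 weeks, in which the hind limbs are kept off the floor and bear no weight, and the series design describes this as a way to induce osteoporosis. The 3 control samples came from WT mice whose treatment is given as none. No agent or transgene is named for either group, and strain, sex, age and whether a sample was 1 animal or a pool are not given in the labels. The p-values therefore measure the spread between these samples, which may be technical.

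Neutrophils are made in the marrow in ordered steps, and each step fills its own kind of granule. Promyelocytes fill the primary, or azurophil, granules with myeloperoxidase and serine proteases, held on a serglycin matrix, and stop transcribing these genes as they become myelocytes, which make secondary granules instead. In whole marrow, transcripts of myeloperoxidase and the proteases therefore mark an early, dividing stage of the lineage, although early monocyte precursors also carry several of them. Srgn is less restricted, as given below.

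Library totals ran from 15850986 to 17775506 counts, so every member rested on 823 to 61925 counts per library. The library of unloaded replicate 1 lay apart from the other 5, with a score of 51.3 on principal component 1 of the log2 CPM values against -13.7 to -7.37, and mitochondrially encoded genes took 0.439% of its counts against 1.05% to 1.27%. Fold changes and medians with this library left out are given below for many genes and lists. Why it lay apart was not tested. Levels are CPM, counts scaled to library size with TMM factors, which corrects library totals for differences in composition. In bulk marrow, fewer cells of a type and less RNA per cell cannot be told apart.

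None of the 10 genes passed edgeR's quasi-likelihood test between unloaded and control marrow, with p-values adjusted over all genes tested and a threshold of 0.05. The same held for all tested genes, of which 0 (0%) passed. At an unadjusted p under 0.05 there was 1 member, Fcnb, where 5.85% of all tested genes had such a p and 3.18% had it with a lower level in unloaded marrow. DESeq2 also called 0 members, against 0.266% of all tested genes. The 9 members other than Ms4a3 had negative fold changes, and the median of the 10 was -0.12 on the log2 scale, where 48.8% of all tested genes were negative and their median was 0.01. Leaving out the library of control replicate 2 brought the number of negative members from 9 to 4 and the median to 0.004. The median was -0.061 without unloaded replicate 1 and -0.193 without unloaded replicate 3. Summed over the members, the level was 7480 ± 873 CPM in the controls and 6964 ± 280 CPM in unloaded marrow (SD, n = 3), and the ranges of 6961 to 8488 and 6696 to 7256 overlapped.

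**Figure D1:**
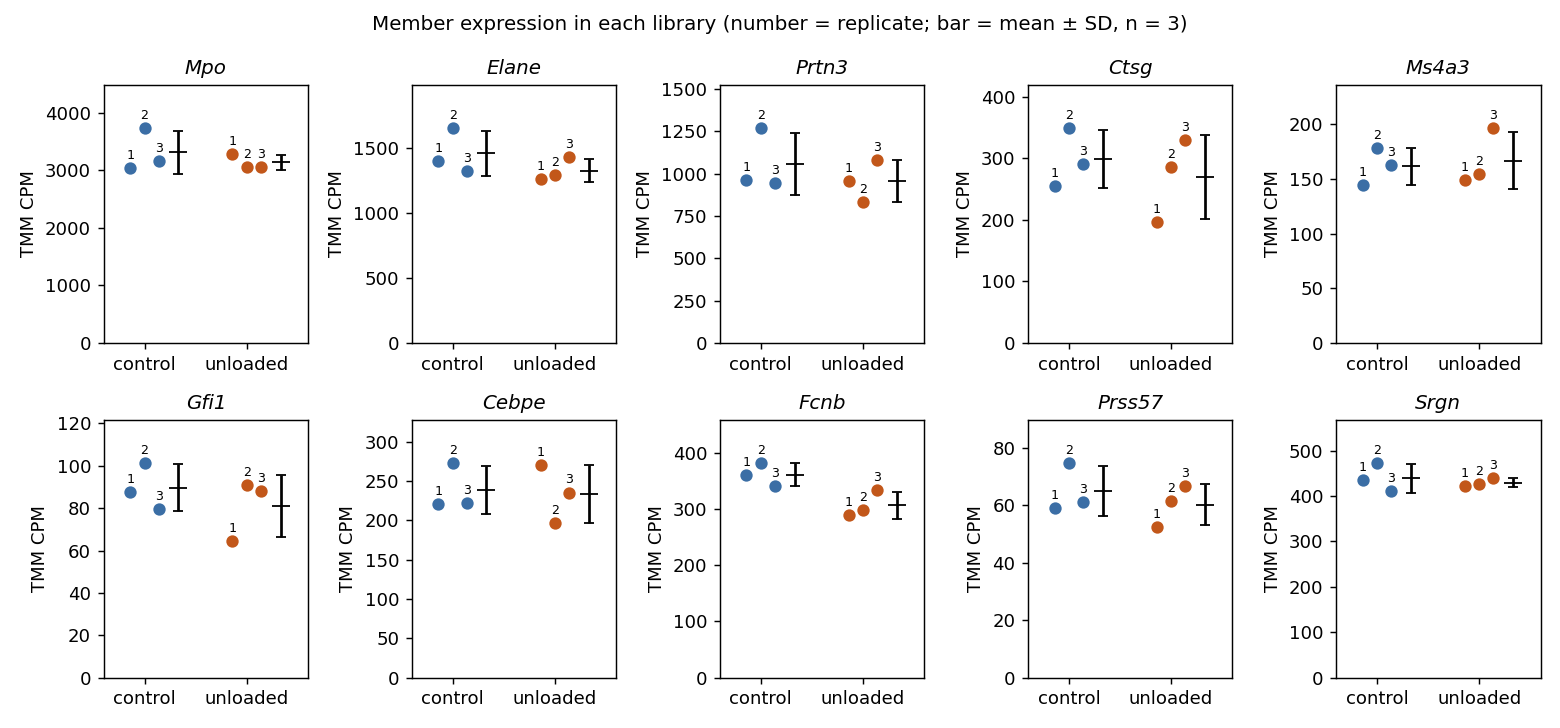
TMM-scaled CPM of each member (y axis, linear, from 0) in the 3 control and 3 unloaded libraries, with the replicate number above each point and the mean ± SD beside each group. Control replicate 2 is the highest of the 6 libraries for 9 of the 10 genes, and Fcnb is the 1 gene whose groups do not overlap.

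Myeloperoxidase, which makes hypochlorous acid from hydrogen peroxide and chloride, is the most abundant primary granule protein. Its gene Mpo (ENSMUSG00000009350, mm10 chromosome 11, 87793581 to 87804413) was at 3038, 3733 and 3159 CPM in control replicates 1, 2 and 3 and at 3287, 3060 and 3055 CPM in unloaded replicates 1, 2 and 3. All 3 unloaded values lay within the range of the controls. The log2 fold change was -0.08 ± 0.11 (SE; edgeR adjusted p = 0.944), and its 95% confidence interval ran from -0.33 to 0.17. Without control replicate 2 it was 0.015.

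Neutrophil elastase and proteinase 3 are closely related serine proteases whose genes stand next to each other, 3072 bases apart, on chromosome 10. Elane (ENSMUSG00000020125, 79886247 to 79888215) was at 1395, 1652 and 1320 CPM in the controls and at 1256, 1289 and 1427 CPM in the unloaded libraries. Unloaded replicates 1 and 2 lay below all controls, and unloaded replicate 3 lay between control replicates 1 and 2. Its log2 fold change was -0.14 ± 0.12 (SE; edgeR adjusted p = 0.910), or -0.04 without control replicate 2. Prtn3 (ENSMUSG00000057729, 79874476 to 79883174) was at 964, 1270 and 944 CPM in the controls and at 956, 834 and 1083 CPM in the unloaded libraries. The groups overlapped, with unloaded replicate 2 the lowest library and control replicate 2 the highest. A log2 fold change of -0.15 ± 0.14 (SE) was found for Prtn3, with an edgeR adjusted p of 0.924, and it was 0.0048 without control replicate 2 and -0.06 without unloaded replicate 2.

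Prss57, a granule protease that cuts after arginine, lies in the same stretch of chromosome 10 (ENSMUSG00000020323, 79781474 to 79790961), so that 106742 bases hold 3 of the 4 protease members. It was the least counted member, at 59.0, 74.9 and 61.0 CPM in the controls and 52.4, 61.4 and 66.6 CPM in the unloaded libraries. Unloaded replicate 1 was the lowest library and the groups overlapped (log2 fold change -0.11 ± 0.13, SE; edgeR adjusted p = 0.930). This value was -0.02 without unloaded replicate 1 and 0.0031 without control replicate 2. The nearest tested genes around the 3 proteases that overlap none of them were looked at for the same pattern. Control replicate 2 was also the highest library for Palm and Med16, but not for Rnf126 and Ptbp1. Rnf126, a ubiquitin ligase gene, stood at 62.2, 61.0 and 62.8 CPM in the controls and 71.9, 71.4 and 70.9 CPM in the unloaded libraries, with no overlap (log2 0.20 ± 0.09, SE; edgeR adjusted p = 0.853). Palm (log2 -0.03 ± 0.10), Ptbp1 (-0.06 ± 0.12, or 0.04 without unloaded replicate 1) and the Mediator subunit gene Med16 (-0.12 ± 0.10) overlapped between the groups.

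Cathepsin G is a serine protease with chymotrypsin-like cleavage, encoded on chromosome 14 (Ctsg, ENSMUSG00000040314, 56099881 to 56102574). Ctsg was at 256, 350 and 291 CPM in the controls and at 196, 285 and 330 CPM in the unloaded libraries. The spread was the widest of the 10 genes, 1.78-fold from the lowest library, unloaded replicate 1, to the highest, control replicate 2. Its log2 fold change was -0.14 ± 0.18 (SE; edgeR adjusted p = 0.935), and it was 0.042 without unloaded replicate 1, -0.02 without control replicate 2 and -0.31 without unloaded replicate 3.

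The sequences before RefSeq starts of the 4 most abundant granule enzyme genes are shown because each of their windows held the letters GAGGAA. The myeloid transcription factor PU.1 can bind this core, and the shared feature was noticed after the windows had been searched. The Prtn3 window, before an internal RefSeq start, lies inside the gene span given above. RefSeq promoter windows on GRCm38.p6, the mm10 build, were matched for 8 of the 10 genes, with 10 windows in all because some genes have a second start. GAGGAA occurred on either strand in the 250 bases before the start in 4 of the 10 windows, those of Mpo, Elane, Prtn3 and Ctsg, and in 23.3% of 32851 such windows of all genes. The letters TTNNGNAA, a form of the C/EBP site, were in 4 of 10 against 36.8%, TGNGGT for RUNX factors in 3 against 40.1%, AACNG for MYB in 9 against 74.2% and AATCNC for GFI1 in 1 against 29.4%, both strands searched and overlaps between motifs allowed. A match describes letters and is not a measured binding site. The part of each window that lies outside GENCODE M21 exons of the gene is printed 5′ to 3′ on the gene's strand with GAGGAA in capitals: chr11:87793534-87793580, plus strand, for Mpo, chr10:79886062-79886246, plus strand, for Elane, chr10:79879417-79879613, plus strand, for Prtn3 and chr14:56102575-56102824, minus strand, for Ctsg.
Mpo: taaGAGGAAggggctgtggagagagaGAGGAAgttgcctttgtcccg
Elane: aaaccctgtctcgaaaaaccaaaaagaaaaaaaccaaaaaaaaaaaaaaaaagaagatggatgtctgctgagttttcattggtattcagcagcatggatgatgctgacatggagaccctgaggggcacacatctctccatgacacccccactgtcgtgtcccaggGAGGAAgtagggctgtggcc
Prtn3: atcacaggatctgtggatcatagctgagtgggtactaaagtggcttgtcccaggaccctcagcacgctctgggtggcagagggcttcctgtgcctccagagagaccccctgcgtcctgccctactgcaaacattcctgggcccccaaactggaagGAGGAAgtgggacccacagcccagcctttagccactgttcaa
Ctsg: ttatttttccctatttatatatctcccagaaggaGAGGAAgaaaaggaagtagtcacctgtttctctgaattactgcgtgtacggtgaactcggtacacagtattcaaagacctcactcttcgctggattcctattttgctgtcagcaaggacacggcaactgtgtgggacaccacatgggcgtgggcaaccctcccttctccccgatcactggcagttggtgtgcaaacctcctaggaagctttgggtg
In Elane and Prtn3 the match lay 85 and 95 bases before the RefSeq start and was on the plus strand of both. It lay farther from the RefSeq start in the others, at 247 and 224 bases before it in Mpo and 216 in Ctsg, also on the gene's strand. These distances depend on the start used. The RefSeq starts of Mpo, Elane and Prtn3 lie inside the gene spans given above, and that of Ctsg lies at the edge of its span.

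Serglycin is the proteoglycan whose negatively charged chondroitin sulfate chains hold the basic granule proteins, and mast cells, platelets and lymphocytes use it as well. Its gene Srgn (ENSMUSG00000020077, chromosome 10, 62493833 to 62527451) was at 434, 473 and 411 CPM in the controls and at 422, 426 and 440 CPM in the unloaded libraries. The unloaded libraries lay within the control range, and the whole spread of 1.15-fold was the narrowest of the 10 genes. The log2 fold change of -0.03 ± 0.10 (SE) had an edgeR adjusted p of 0.976 and a 95% interval of -0.26 to 0.19. Leaving out control replicate 2 gave 0.022, and leaving out control replicate 3 gave -0.08.

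Ficolin B is a secreted lectin that recognises sugars on microbes and can start the lectin pathway of complement. Fcnb (ENSMUSG00000026835, chromosome 2, 28076378 to 28084885) was at 361, 382 and 341 CPM in the controls and at 289, 298 and 333 CPM in the unloaded libraries. It was the 1 member whose groups did not overlap, with every unloaded library below every control, as was the case for 6.4% of all tested genes. The level after unloading was 0.849 of the control level (95% interval 0.722 to 0.997), a log2 fold change of -0.24 ± 0.11 (SE). The unadjusted p was 0.0470, and the gene did not pass over all genes, the adjusted p being 0.845 by edgeR and 0.818 by DESeq2. The sign held with each library left out, between -0.30 and -0.19. The Fcnb window is shown because 2 matches to TTNNGNAA, a C/EBP-type sequence, lie in it, and C/EBP-epsilon is among the members. A window of Srgn held more such matches, and windows of Gfi1 and Ms4a3 also held the sequence. A link of these matches to the levels was not tested. The Fcnb window is chr2:28084886-28085128, minus strand, with the matching letters in capitals.
Fcnb: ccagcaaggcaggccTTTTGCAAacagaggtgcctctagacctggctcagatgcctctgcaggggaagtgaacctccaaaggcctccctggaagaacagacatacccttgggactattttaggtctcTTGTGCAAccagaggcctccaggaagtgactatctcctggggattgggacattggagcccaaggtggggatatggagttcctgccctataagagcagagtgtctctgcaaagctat

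Ms4a3 encodes a membrane protein with 4 transmembrane passes that marks granulocyte and monocyte progenitors and is also found in basophils. It (ENSMUSG00000024681, chromosome 19, 11629496 to 11640851) was at 144, 178 and 163 CPM in the controls and at 149, 155 and 197 CPM in the unloaded libraries. The highest library was unloaded replicate 3, which made Ms4a3 the 1 member not led by control replicate 2. With a log2 fold change of 0.04 ± 0.13 (SE; edgeR adjusted p = 0.976) its sign was not stable, since it was -0.03 without control replicate 1, -0.09 without unloaded replicate 3 and 0.12 without unloaded replicate 1 or control replicate 2.

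Gfi1, a zinc finger repressor needed for neutrophil formation, and Cebpe, the C/EBP factor needed for promyelocytes to move on to the secondary granule stage, are the 2 transcription factors of the group. Gfi1 (ENSMUSG00000029275, chromosome 5, 107716657 to 107726036) was at 87.8, 102 and 79.5 CPM in the controls and at 64.4, 91.0 and 88.2 CPM in the unloaded libraries. Unloaded replicate 1 was the lowest library and the other 2 unloaded values lay among the controls. The log2 fold change of -0.14 ± 0.15 (SE; edgeR adjusted p = 0.924) was 0.0005 without unloaded replicate 1 and -0.04 without control replicate 2. Cebpe (ENSMUSG00000052435, chromosome 14, 54710360 to 54712174) was at 221, 273 and 221 CPM in the controls and at 270, 196 and 235 CPM in the unloaded libraries. Here unloaded replicate 1 was nearly as high as control replicate 2, and unloaded replicate 2 was the lowest library. The log2 fold change was -0.03 ± 0.14 (SE; edgeR adjusted p = 0.982), and it was 0.08 without unloaded replicate 2 or without control replicate 2 and -0.14 without unloaded replicate 1.

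**Figure D2:**
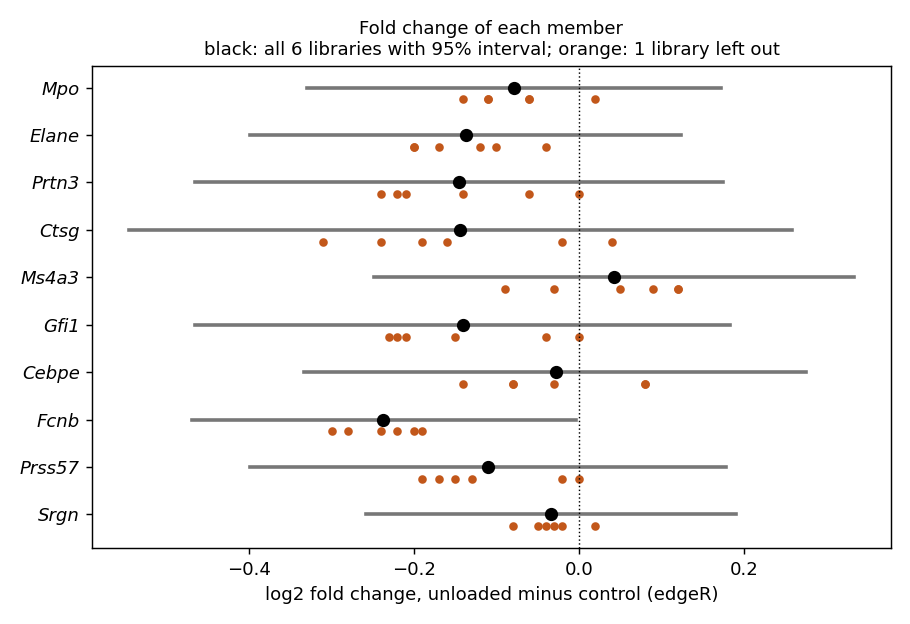
Log2 fold change of each member, unloaded minus control (x axis), from all 6 libraries (black point, with the 95% confidence interval as a bar) and with 1 library left out in turn (orange points). The interval of Fcnb ends at -0.004, and the intervals of the other 9 genes include 0.

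Counts from overlapping genes could enter 4 of the members, because no strand setting is given in the sources used here. The span of Prtn3 shares its first bases with Plppr3 on the other strand, which had 1039 to 1515 counts per library. Plppr3 was at 59.4, 76.1 and 70.5 CPM in the controls and at 96.5, 81.6 and 87.3 CPM in the unloaded libraries, with no overlap (log2 0.36 ± 0.12, SE; edgeR adjusted p = 0.801). Gm11505, antisense to Mpo, had 3 to 15 counts, A430072P03Rik, overlapping Gfi1, had 45 to 68, and Fstl3, overlapping Prss57, had 25 to 52.

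Per kilobase of gene length, Elane stood first, at 1480 ± 177 CPM per kb in controls and 1345 ± 92.0 in unloaded marrow (SD, n = 3). Mpo followed at 967 ± 108 and 915 ± 38.7 CPM per kb, and Prtn3 at 611 ± 106 and 553 ± 71.9. These 3 genes kept this order with no overlap between neighbours over the 6 libraries, and ranked 18, 27 and 47 among the 15015 tested genes on this scale. Ctsg (289 ± 45.9 and 262 ± 66.2) and Fcnb (270 ± 15.7 and 229 ± 17.6) came next and overlapped each other. Srgn (200 ± 14.4 and 195 ± 4.29) and Cebpe (192 ± 24.2 and 188 ± 29.6) likewise overlapped. The first pair was not clear of the second, since in unloaded replicate 1 Ctsg, at 190, lay below Srgn, at 192, and Cebpe, at 217. Ms4a3 was clear of its neighbours at 85.9 ± 8.97 and 88.5 ± 13.9 CPM per kb. Gfi1 (28.1 ± 3.49 and 25.5 ± 4.59) and Prss57 (22.8 ± 3.04 and 21.2 ± 2.52) formed the lower end and overlapped.

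The members varied together more between single libraries than between the groups. Taken as log2 deviations from each gene's own mean over the 6 libraries, all 10 members were positive in control replicate 2, where their mean deviation was 0.23, and 9 were positive in unloaded replicate 3, with a mean of 0.08. The mean was -0.04 in control replicates 1 and 3, -0.15 in unloaded replicate 1 and -0.08 in unloaded replicate 2. Control replicate 2 was the highest library for 9 of the 10 members, whereas it was the highest for 12% of all tested genes. Some genes outside the group shared this. Of related genes named below, it was also the highest for Lyz2, Slpi, Wfdc21, Ltf, Camp, Csf2ra and Spi1. For most related genes named below it was not the highest, among them Ngp, Csf2rb, Mgst1, Ctsc, Cebpa, Myb, Hp, Cxcr4, Mmp9 and Mki67. These are descriptions of single libraries, with no test. In unloaded replicate 1 the members came apart: Ctsg deviated by -0.52 and Gfi1 by -0.39, while Cebpe was at 0.20 and Mpo at 0.03.

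**Figure D3:**
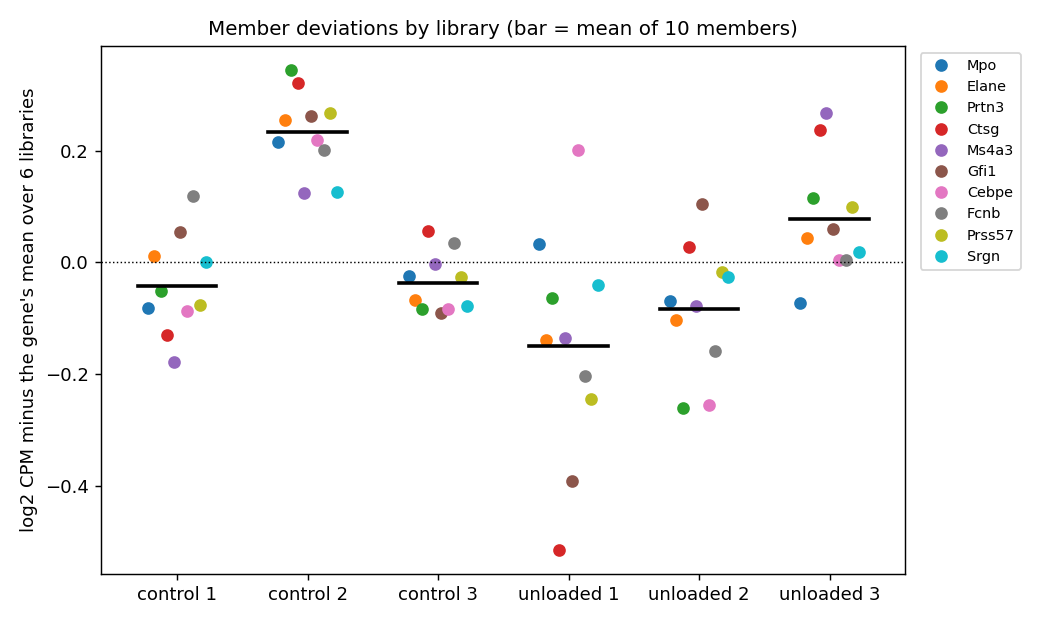
Log2 CPM of each member minus that gene's mean over the 6 libraries (y axis) in each library (x axis), coloured by gene, with a bar at the mean of the 10 genes. All 10 points lie above 0 in control replicate 2, and the points of unloaded replicate 1 spread from -0.52 for Ctsg to 0.20 for Cebpe.

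Ratios between members within a library do not depend on library scaling. The log2 ratio of Elane to Mpo was -1.19 ± 0.07 in controls and -1.25 ± 0.15 in unloaded marrow (SD, n = 3), and that of Prtn3 to Elane was -0.47 ± 0.08 and -0.47 ± 0.13. The ratio of Ctsg to Mpo was -3.57, -3.42 and -3.44 in controls and -4.07, -3.42 and -3.21 after unloading. Unloaded replicate 1 alone lay outside the range of the other libraries by more than they differed among themselves. The log2 ratio of Cebpe to Gfi1 was 1.33, 1.43 and 1.48 in controls and 2.07, 1.11 and 1.42 after unloading, with the same library at the top. Over the 6 libraries the closest pair of members was Elane and Prss57, with a root mean square difference of 0.072 between their log2 deviations, and the most distant was Ctsg and Cebpe, at 0.337.

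Among 8956 other protein-coding genes with a mean of at least 10 CPM, those closest to the mean profile of the members were Ppp1r14b, Txn1, Itpa, Mrpl44 and Slc39a3. Their root mean square differences over the 6 libraries were 0.0264, 0.03, 0.0332, 0.0347 and 0.0363 on the log2 scale, where the profile itself had a root mean square of 0.125. Txn1, the thioredoxin gene, was at 240, 281 and 242 CPM in the controls and 230, 236 and 256 CPM in the unloaded libraries. It repeated the high values of control replicate 2 and unloaded replicate 3. The secondary granule gene Camp came next, at 0.0407.

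Genes that act on the granule proteases were looked at as a group of 9, of which 6 had positive and 3 negative fold changes (median 0.07) and 0 passed edgeR's test over all genes. Ctsc encodes cathepsin C, the dipeptidyl peptidase that activates elastase, proteinase 3 and cathepsin G. It was at 116, 129 and 113 CPM in the controls and at 208, 135 and 220 CPM in the unloaded libraries. The groups did not overlap, as was the case in this direction for 5.46% of all tested genes, and unloaded replicate 2 was close to the controls. Its log2 fold change was 0.65 ± 0.17 (SE; adjusted p = 0.600 by edgeR and 0.0593 by DESeq2), and it ranged from 0.52 to 0.84 with each library left out. The protease inhibitor genes Serpinb6a (0.19 ± 0.13), Serpinb1a (0.06 ± 0.12), Slpi (-0.02 ± 0.11) and Wfdc21 (-0.10 ± 0.13) overlapped between the groups. The chaperone gene Canx was at -0.04 ± 0.11. Without unloaded replicate 1 Canx was at 0.03, Wfdc21 at -0.05 and Serpinb1a at 0.10, and without unloaded replicate 3 Serpinb1a was at -0.08. The median of the 9 ran from 0.02 without unloaded replicate 1 to 0.14 without unloaded replicate 2.

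Of 18 further genes of primary granule and lysosomal cargo, 17 were tested, with 8 positive and 9 negative fold changes, the median at -0.01 and 0 called. Without unloaded replicate 1 the median was -0.11, with 13 negative, and without unloaded replicate 2 or 3 it was 0.04. Lyz2, the lysozyme gene of myeloid cells, was at 7669 ± 704 CPM in the controls and 7257 ± 695 CPM in unloaded marrow (SD, n = 3). The glycosidase genes Fuca1 (0.20 ± 0.16) and Gusb (0.07 ± 0.12) and the sulfatase gene Arsb (-0.19 ± 0.18) overlapped between the groups. All 3 turned direction without unloaded replicate 1, to -0.03, -0.04 and 0.03. Bpi was too low to test.

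The 13 enzymes that build chondroitin sulfate on serglycin and other proteoglycans had 10 negative and 3 positive fold changes, the median being -0.13, and 0 were past the threshold. Xylt1, which attaches the first sugar of the chain to the core protein, was at 103 ± 9.61 CPM in the controls and 86.1 ± 7.47 CPM in the unloaded libraries, without overlap (log2 -0.26 ± 0.11; edgeR adjusted p = 0.816). The sulfotransferase gene Chst15 (-0.27 ± 0.12) overlapped and was at -0.17 without unloaded replicate 1. Xylt2 (0.09 ± 0.20) and B3gat3 (0.03 ± 0.15) were the positive genes of this list with the smallest p, and both turned negative without unloaded replicate 1, to -0.12 and -0.15.

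Transcription factors of early myeloid cells had 12 negative fold changes of 13, where 48.8% of all tested genes were negative, and the median was -0.16 and 0 passed. In 5 of the 13, and in 6.4% of all tested genes, every unloaded library lay below every control. Cebpa, which starts the granulocyte program upstream of Gfi1 and Cebpe, was at 173, 167 and 145 CPM in the controls and at 135, 130 and 132 CPM in the unloaded libraries. The 3 unloaded values lay close together under the lowest control (log2 -0.28 ± 0.10, SE; edgeR adjusted p = 0.802). Klf4, a factor of monocyte formation, was at 140, 103 and 100 CPM and at 48.6, 95.1 and 80.9 CPM, and its log2 fold change of -0.61 ± 0.22 was -0.38 without unloaded replicate 1. Myb, an activator of primary granule genes, was at 267 ± 6.23 CPM in the controls and at 177, 267 and 263 CPM in the unloaded libraries, low in unloaded replicate 1 alone (log2 -0.18 ± 0.15, and -0.01 without that library). Spi1, the gene of PU.1, had a log2 fold change of 0.00 ± 0.12, and Runx1 one of -0.06 ± 0.11. The median of the 13 was -0.25 without unloaded replicate 3.

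Among 11 other genes of granulocyte-monocyte progenitors and promyelocytes 9 were negative (median -0.08, and 0.00 without unloaded replicate 1) and 0 passed. Hdc, the histidine decarboxylase gene that basophils also use, was at 393, 357 and 270 CPM in the controls and 936, 312 and 353 CPM in the unloaded libraries. Its value rested on unloaded replicate 1, with a log2 fold change of 0.65 ± 0.35 that was -0.03 without it. The cytokine receptor genes Csf2rb (0.23 ± 0.14) and Csf2ra (-0.17 ± 0.12) and the glutathione transferase gene Mgst1 (-0.24 ± 0.17) overlapped between the groups, and were at 0.11, -0.08 and -0.03 without unloaded replicate 1.

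**Figure D4:**
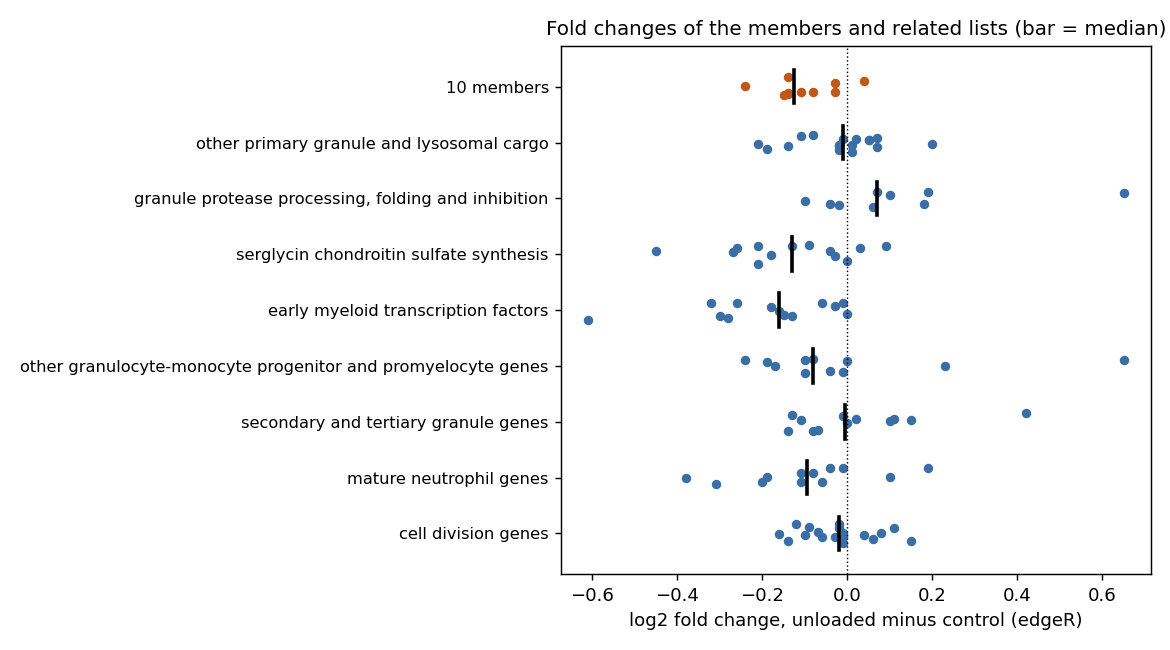
Log2 fold change of each tested gene, unloaded minus control (x axis), for the 10 members (orange) and 8 related lists (blue), with a bar at each median. The medians lie between -0.16 for the early myeloid transcription factors and 0.07 for the genes acting on granule proteases, with -0.12 for the members.

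Later neutrophil stages served to place the members in the lineage. Secondary and tertiary granule genes had 6 positive and 6 negative fold changes of 12, with a median of 0 that ran from -0.06 to 0.09 with single libraries left out, and 0 passed. Ngp was at 12283 ± 804 CPM in the controls and 11233 ± 1431 CPM in unloaded marrow (SD, n = 3), and Ltf, the lactoferrin gene, at 9903 ± 1011 and 9386 ± 1324 CPM. Olfm4 (0.15 ± 0.13) and Itgb2l (-0.14 ± 0.16) also overlapped. Itgb2l was at 0.03 without unloaded replicate 1, and Olfm4 was at 0.23 without that library and at 0.00 without unloaded replicate 3. Hp, the haptoglobin gene, was at 1159 ± 62.0 and 1548 ± 464 CPM, a log2 fold change of 0.42 ± 0.18 that was 0.18 without unloaded replicate 1. Mature neutrophil genes had 10 negative fold changes of 12 (median -0.09, or -0.03 without unloaded replicate 2), with 0 past the threshold. Of these Cxcr4, the receptor that retains neutrophils in the marrow, was at 358 ± 24.4 and 276 ± 32.6 CPM without overlap (log2 -0.38 ± 0.12; edgeR adjusted p = 0.760). The gelatinase gene Mmp9 had -0.31 ± 0.12 and Retnlg 0.19 ± 0.14, which became -0.19 and 0.03 without unloaded replicate 1.

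The balance of early to later granule transcripts was taken as the log2 ratio, within each library, of the summed CPM of Mpo, Elane, Prtn3, Ctsg and Prss57 to that of Ltf, Camp, Ngp, Lcn2 and Cd177. It was -2.47, -2.21 and -2.30 in control replicates 1, 2 and 3 and -2.34, -2.25 and -2.47 in unloaded replicates 1, 2 and 3. The unloaded values lay within the control range save for a difference in the third decimal at the lower end. Group means were -2.33 ± 0.13 and -2.35 ± 0.11 (SD, n = 3), a difference of -0.03 that was smaller than either SD. Sums weigh the most abundant genes most. The difference was -0.09 when each gene weighed equally, as mean log2 CPM, and -0.056 with sums over 8 later genes. Both were also smaller than the SDs of their groups. Against later genes, control replicate 2 was still the highest library. In the sums unloaded replicate 3, which had high members, was the lowest together with control replicate 1. With each gene weighed equally, control replicate 2 was again the highest, but unloaded replicate 1 was the lowest, at -3.155.

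**Figure D5:**
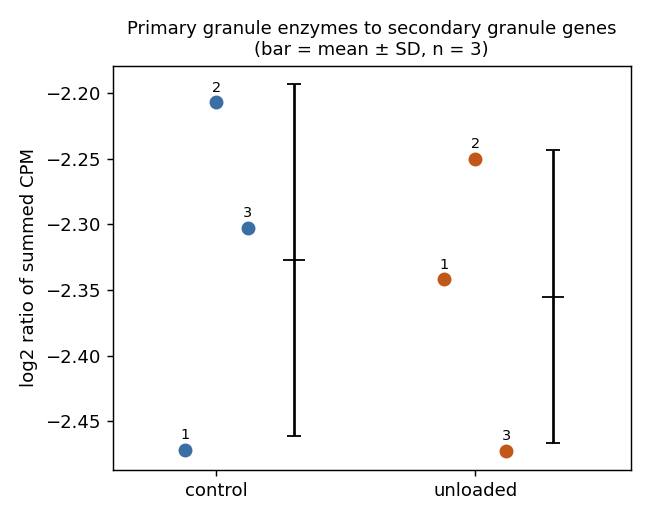
Log2 ratio of summed CPM of 5 primary granule enzyme genes to 5 secondary granule genes (y axis, which does not start at 0) in each library, with the replicate number and the mean ± SD of each group. The controls span -2.47 to -2.21 and the unloaded libraries -2.47 to -2.25.

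Promyelocytes divide, so genes of replication and mitosis were counted beside them. Of 19 such genes 14 were negative, the median was -0.02, and 0 passed, but without unloaded replicate 1 all 19 were positive with a median of 0.05. Mki67, a marker of dividing cells, was at 1081 ± 116 CPM in the controls and 1169 ± 65.5 CPM in the unloaded libraries, and Birc5 had 0.15 ± 0.10, Plk1 -0.16 ± 0.15 and Aurkb -0.12 ± 0.12. Plk1 and Aurkb were both at 0.00 without unloaded replicate 1.

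Markers of other marrow cells that share some members were measured in the same libraries, and their part in the members' values was not tested. Each list had 0 members past edgeR's threshold over all genes, and none had a gene at 0 counts in all libraries. Monocyte markers, whose precursors express Mpo and Elane, summed to 3207 to 3632 CPM in the controls and 3044 to 3867 CPM in the unloaded libraries, with 5 of 8 positive and a median of 0.05. Without unloaded replicate 1, 3 of 8 were positive and the median was -0.08. Within them Cx3cr1 was at 59.2 ± 1.39 and 37.3 ± 3.24 CPM (log2 -0.67 ± 0.11; DESeq2 adjusted p = 0.000861), while F13a1 (0.37 ± 0.15), Ccr2 (0.36 ± 0.15) and Ly6c2 (-0.22 ± 0.15) overlapped. Without unloaded replicate 1 F13a1 was at 0.19 and Ly6c2 at -0.07, and without unloaded replicate 3 Ly6c2 was at -0.38. Basophil and mast cell markers, which accompany Ms4a3 and Srgn, summed to 451 to 465 CPM in the controls and 351 to 424 CPM in the unloaded libraries, with 6 of 8 negative and a median of -0.19, or -0.04 without unloaded replicate 1. The basophil protease gene Prss34 had a log2 fold change of -0.31 ± 0.09 with no overlap between the groups, and Fcer1a (-0.47 ± 0.18) was also separated, whereas Il4 (0.42 ± 0.44) and Cd200r3 (0.15 ± 0.18) were not. Il4 was at -0.01 without unloaded replicate 1, and Cd200r3 was at 0.03 without unloaded replicate 2.

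Eosinophil markers summed to 1154 to 1864 CPM in the controls and 1394 to 2366 CPM in the unloaded libraries, and among the controls replicate 2 was the highest here too. Of these 7 markers 6 were positive (median 0.19, or 0.06 to 0.38 with single libraries left out), with Prg2 at 0.43 ± 0.26, Il5ra, whose groups did not overlap, at 0.37 ± 0.21 and Ear6 at -0.01 ± 0.19. Without unloaded replicate 1, 4 of the 7 were positive and Prg2 was at 0.06. Megakaryocyte and platelet markers, another source of Srgn, summed to 100 to 104 CPM in the controls and 70.4 to 86.6 CPM in the unloaded libraries, with all 6 tested markers negative (5 of 6 without unloaded replicate 3), among them Ppbp (-1.32 ± 0.30), and Gp1bb too low to test. T and NK cell markers, which also accompany Srgn, summed to 45.3 to 60.4 CPM and 53.5 to 81.8 CPM, with 8 of 8 positive (6 of 8 without unloaded replicate 2), and the smallest p for Gzma (0.98 ± 0.26) and Cd3d (0.42 ± 0.22, or 0.26 without unloaded replicate 1). Erythroid markers summed to 3987 to 4860 CPM in the controls and 4863 to 6613 CPM in the unloaded libraries, with 6 of 8 positive (3 of 8 without unloaded replicate 2), and Hbb-bs was at 0.55 ± 0.13 and Hba-a1 at 0.47 ± 0.14, with Tfrc (-0.02 ± 0.16) and Ermap (-0.01 ± 0.17) close to 0 (0.16 and 0.12 without unloaded replicate 1). B cell markers summed to 655 to 760 and 489 to 675 CPM, with all 7 negative (5 of 7 without unloaded replicate 3), and the smallest p for Vpreb3 (-0.74 ± 0.14) and Ebf1 (-0.40 ± 0.15). DESeq2 called Vpreb3 (adjusted p = 0.00414), Ppbp (0.00543) and Hbb-bs (0.0358) besides Cx3cr1, and no other gene of these lists.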

How the data were processed

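RNA-seq libraries from total RNA of femoral bone marrow cells of 3 control and 3 unloaded samples were compared. The libraries were prepared with TRNzol and the NEBNext Ultra kit, per the labels' protocols. CASAVA, HISAT2 2.0.5, featureCounts 1.5.0-p3 and the build mm10 are named per the submitters' processing notes, without roles. The annotation release, strand setting and treatment of multiply aligned reads were not given in the sources used here. The values as the authors deposited them were unnormalized read counts by gene, judged from whole numbers and unequal totals of 15850986 to 17775506, and other columns gave gene length and position in the same table.

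Groups follow the sample titles. All 15 pairs of libraries differed by more than sampling noise, with a chi-square of 6.64 to 34.3 per degree of freedom. Genes were kept by filterByExpr with default settings (15015), scaled with TMM and tested with edgeR 4.0.16 (glmQLFit, glmQLFTest) under R 4.3.3. Benjamini-Hochberg adjustment covered all tested genes, and an adjusted p under 0.05 was a call. Standard errors came from dividing the fold change (log2) by the root of the F statistic, and values after ± are SD for levels and SE for fold changes. Log2 CPM used a prior count of 2.

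The 10 members and the 15 other lists were chosen with earlier results of these data known, so no test is made over a list. Named genes were the members, the 2 genes with the smallest p per direction in each list, the tested neighbours on chromosome 10 and the 5 genes of nearest profile; some genes that this rule names are not reported here. Camp, Lyz2, Ltf, Mki67, Myb, Spi1, Runx1, Serpinb1a and Slpi, and the genes overlapping members, were named after their values were seen. Alternatives were DESeq2 1.42.0, limma-voom (limma 3.58.1), scaling by RLE or by the upper quartile, other filters, scaling without the 20 most counted genes, each library left out, and a replicate block. The fits were tested on simulated data.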

Additional observations from a re-analysis of the deposited data

How the results depend on the processing

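For the 10 members, 140 fold changes were computed under 14 alternatives, and 0 were called in any of them. The direction turned in 10, all with 1 library left out. Without control replicate 2 the log2 fold changes were 0.015 for Mpo, 0.0048 for Prtn3, 0.079 for Cebpe, 0.0031 for Prss57 and 0.022 for Srgn. They were 0.042 for Ctsg and 0.0005 for Gfi1 without unloaded replicate 1, -0.032 for Ms4a3 without control replicate 1, -0.094 for Ms4a3 without unloaded replicate 3 and 0.08 for Cebpe without unloaded replicate 2. The cause was not tested. The opposite ends of the ranges with single libraries left out were -0.244 for Prtn3, -0.314 for Ctsg and -0.191 for Prss57 without unloaded replicate 3, 0.119 for Ms4a3 without unloaded replicate 1, -0.234 for Gfi1 without unloaded replicate 2 and -0.081 for Srgn without control replicate 3. The number of negative members was 4 to 10 with single libraries left out, 4 without control replicate 2, and their median was -0.193 to 0.004.

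Over all genes edgeR called 0 (879 at an unadjusted p under 0.05), DESeq2 40, and edgeR without a low-count filter 183. With 1 library left out it called 0 to 5, the 5 without unloaded replicate 1. A replicate block gave 1 call, Stfa1, which is no member. The labels do not say whether the replicate numbers pair the samples. Deviations of same-numbered libraries correlated at 0.0309, -0.0633 and 0.0185 across genes, which cannot decide it. No member was called under the block. With single libraries left out, an alternative added after seeing the data, the list medians of the early myeloid transcription factors ran from -0.25 to -0.14 and those of the erythroid markers from -0.07 to 0.34. The balance of primary to secondary granule genes moved by less than its spread. With 3 libraries per group, the 95% intervals of the members reached from -0.55 to 0.33 on the log2 scale, so changes inside them could not be seen.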
